A study of Bubalus bubalis with 8 samples.

Results

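The gene expression of buffalo (Bubalus bubalis) mammary epithelial cells (MECs) harvested 4 h after heat stress was compared with that of unstressed MECs (CTR), with 1 bovine oligonucleotide array each out of the 8 arrays of the series. Both came from a primary culture of mammary tissue of 1 adult female buffalo, used at passage 10 in collagen-coated plates. The heat stressed plate was held at 42 °C for 1 h and then returned to 37 °C with 5% CO2, whereas the CTR plate stayed at 37 °C. Cells were detached with trypsin at harvest. The labels give no time of harvest for the CTR array. No condition had a second array, so there was no replicate check and no p-value, and the culture stands for 1 animal. Buffalo RNA was measured with probes designed on cattle sequence.

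The level of a probe is the log2 Cy3 signal minus the 75th percentile of its array, and a change is the 4 h level minus the CTR level. Of 43653 probes outside the control spots, 16647 were bright, that is, marked as well above background, in CTR or at 4 h. A total of 1294 of these lay at positions where the CTR array was dark and were left out, which left 15353 probes. Among them 10835 were well above background on both arrays, 4261 at 4 h alone and 257 in CTR alone. For the latter groups the dim array was set to the higher of its own value and the lowest level well above background, which was -0.59 in CTR and -1.78 at 4 h. Such a change is a bound and is written as at least N-fold. The spread between spots of 1 probe was 0.21 in CTR and 0.29 at 4 h (SD, log2), which gives an error of 0.36 for a change read from 1 spot on each array, within arrays only. The 4 h array was brighter, with 37.5% of its probes well above background against 26.5% in CTR. It lay on another slide than CTR. The 2 h, 4 h and 16 h arrays shared slide 2, and CTR, 8 h, 12 h and 24 h shared slide 1, so slide and heat stress cannot be told apart. Levels at 30 min were not used here, since the printed corner spots of that array read 7.55 (log2 signal) against 14.5 to 15.4 on the others. On the 16 h array 2460 probes lay in an area of low readings, and on the 4 h array none did.

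Milk is made by the secretory epithelium of the mammary gland. Caseins and whey proteins such as beta-lactoglobulin and alpha-lactalbumin are made there under the control of prolactin, STAT5 and contact with the basement membrane. Milk fat is assembled from fatty acids that are taken up or newly made, and is released in droplets wrapped in membrane. Cells moved to 42 °C are known to make heat shock proteins, chaperones that hold and refold damaged proteins, with a peak in the first hours of recovery.

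Probes for a pair of milk protein genes among those with the largest differences, for vimentin and for the gene lowest against CTR are shown here, because every value below rests on such 60-base cattle sequences. They are given 5′ to 3′ with their position on the cattle build named in the array design (Btau 3.1, plus strand for all 4). The intervals of the LALBA and VIM probes are longer than the probes themselves.
CSN1S1, chr6:88307237-88307296: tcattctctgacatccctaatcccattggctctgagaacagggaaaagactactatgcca
LALBA, chr5:34387982-34388545: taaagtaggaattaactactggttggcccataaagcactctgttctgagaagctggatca
VIM, chr13:31482880-31483759: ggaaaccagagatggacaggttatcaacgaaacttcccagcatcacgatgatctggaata
LAMA4, chr9:40018165-40018224: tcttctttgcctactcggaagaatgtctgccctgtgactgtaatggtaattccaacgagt

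At least 3-fold higher at 4 h were 408 probes, or 2.66% of those that passed, and at least 3-fold lower were 825, or 5.37%. Of the higher probes 233 were dim in CTR, and of the lower ones 253 were dim at 4 h. The split between both directions moved with the scaling. Centred on the median of all probes, which added 1.09 to the change of every probe bright on both arrays, 2683 were higher and 82 lower. With normexp background correction 653 were higher and 214 lower. With 1 probe for each of 7852 genes, the brightest that passed, 244 genes (3.11%) were higher and 352 (4.48%) lower, and the median change was 0.00, or -0.09 over the 5945 genes bright on both arrays. The shares of 3.11% and 4.48% are the reference for the list counts below. Of the higher genes, 127 had 1 or more further probes, and 81 of these 207 probes were also 3-fold higher. Of the lower genes, 87 had 129 further probes, of which 58 were also 3-fold lower.

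**Figure D1:**
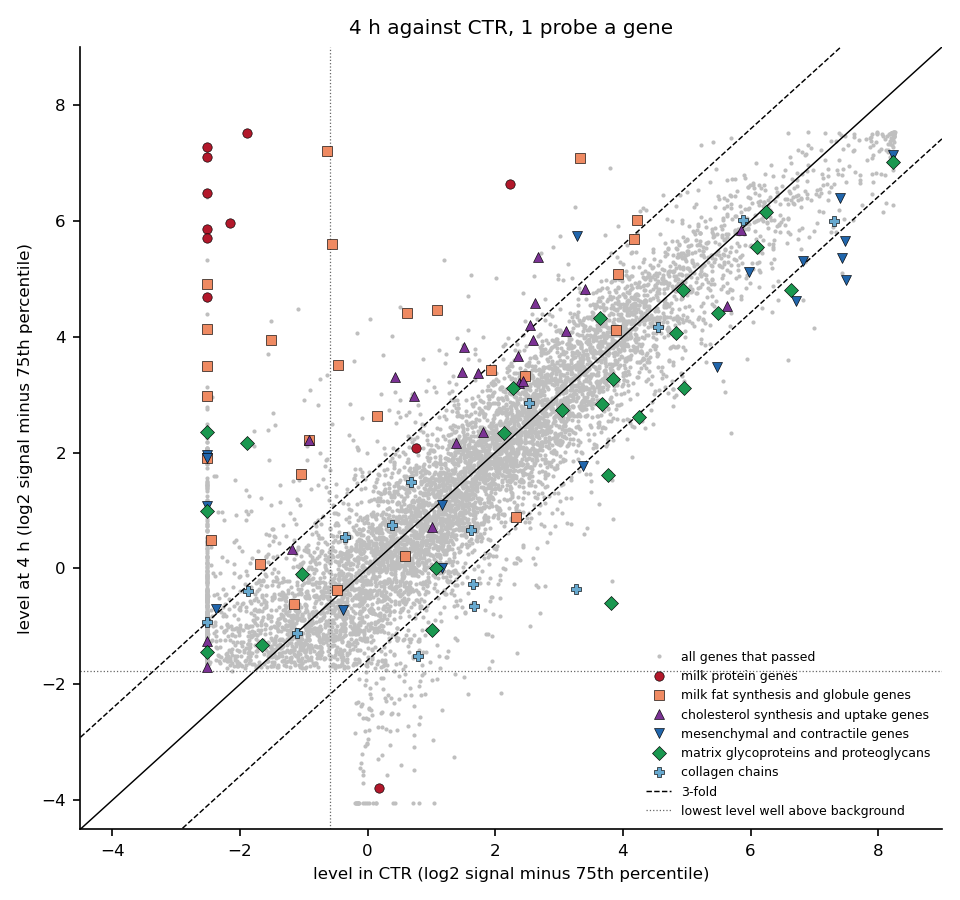
Level of each gene at 4 h against CTR (log2 signal minus the 75th percentile of the array, 1 probe and 1 array each), with 6 gene lists in colour, dashed lines at 3-fold and dotted lines at the lowest level well above background. 8 milk protein genes stand at the upper left, dim in CTR and between 4.69 and 7.51 at 4 h, while some contractile, collagen and matrix genes lie below the lower dashed line.

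Of 13 milk protein genes on the array 11 passed. At least 3-fold higher at 4 h were 9 of them and 1 was lower, against 3.11% and 4.48% of all genes. As 8 of the 9 passed through the 4 h array alone, their changes could only be upward. PAEP (beta-lactoglobulin, the main whey protein) read -1.89 in CTR, not well above background, and 7.51 at 4 h, where its spot was saturated, at least 273-fold higher. CSN1S1 (alpha-s1-casein) read -2.51 in CTR, the value shared by all spots of that array not above the noise, and 7.27 at 4 h, at least 231-fold higher. All 6 of its probes were dim in CTR and bright at 4 h. LALBA (alpha-lactalbumin, needed for lactose synthesis) read -2.51 in CTR and 7.11 at 4 h, at least 207-fold higher. Of the other milk proteins, CSN1S2 was at least 133-fold, GLYCAM1 at least 93.8-fold, CSN3 (kappa-casein, which stabilises the micelle) at least 87.1-fold and LTF (lactotransferrin) at least 78.5-fold higher. Further probes gave lower bounds, of 4.70 (log2) for LALBA, 4.19 for CSN3 and between 0.00 and 3.48 for LTF.

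CSN2 (beta-casein) was the single milk protein gene bright on both arrays, at 2.22 in CTR and 6.63 at 4 h, 21.3-fold higher. Its other probes that passed read -2.51 in CTR, and for them the change was at least 6.32 (log2). The probe for LPO (lactoperoxidase) was at least 38.8-fold higher, but it lay within 10 spots of the dark positions of CTR, where bright probes nearby read 0.84 below the other arrays in the median. The transcription factors of the list were apart. STAT5A was at 0.18 in CTR and dim at 4 h, at least 3.89-fold lower, while STAT5B was 2.51-fold higher, from 0.76 to 2.09.

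The milk protein genes were also read on the arrays that were not compared. CSN1S1 read 2.26 at 2 h and 8.46 at 16 h, and was dim at 8 h, 12 h and 24 h. LALBA read 0.36 at 2 h and 7.91 at 16 h, and PAEP 5.31 and 8.22, both dim on the other 3 arrays. CSN2 read 2.71 at 2 h, 7.98 at 16 h and between 1.99 and 2.30 at 8 h, 12 h and 24 h. For CSN1S1, LALBA and CSN2 the 16 h level was the highest, followed by 4 h and then 2 h. The 75th percentile was a signal of 355 at 4 h and 121 at 16 h, and the order of these arrays depends on that scaling. PAEP at 4 h was saturated and has no rank against 16 h. In MECs of a culture, fewer cells of a type and less RNA per cell cannot be told apart.

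**Figure D2:**
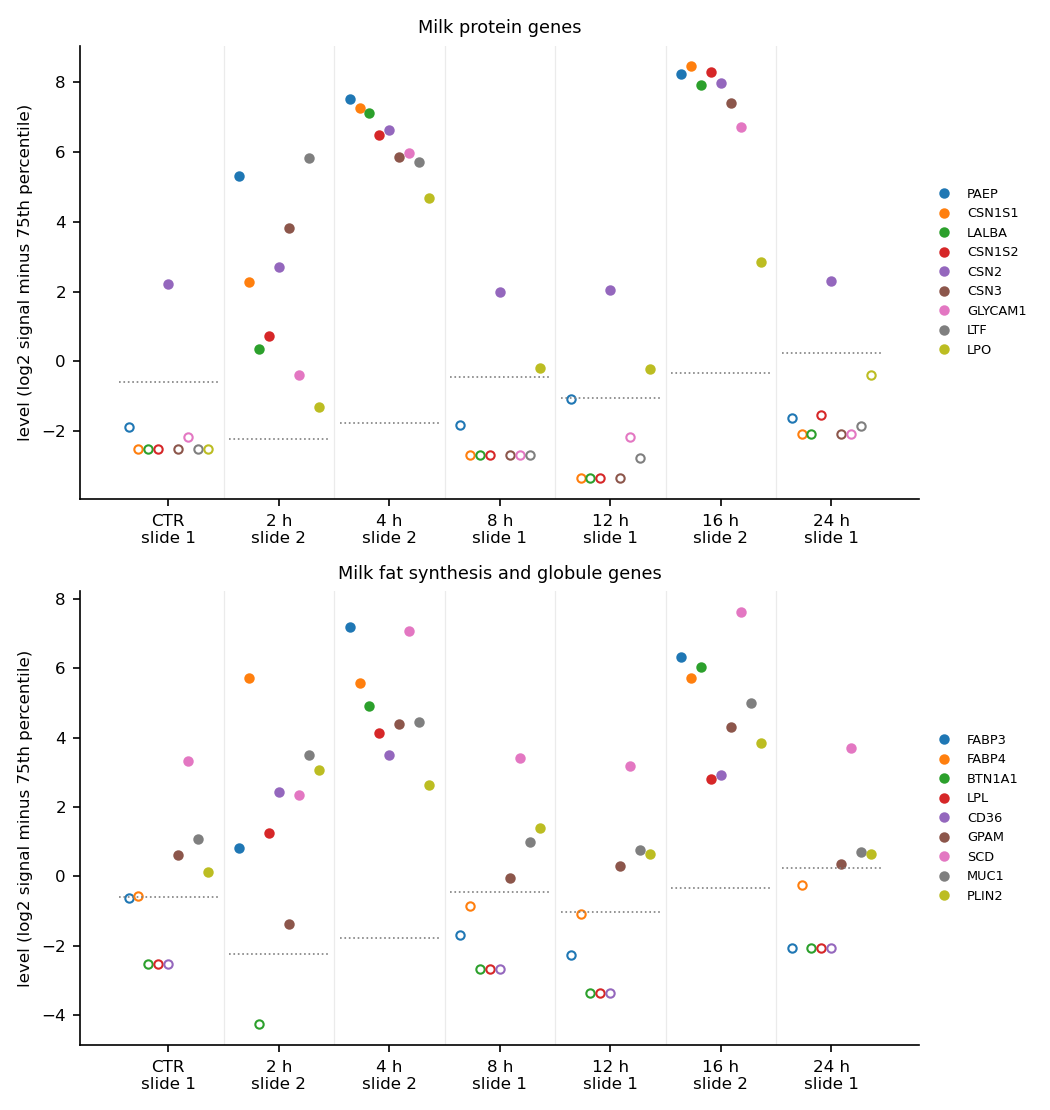
Levels (log2 signal minus the 75th percentile) of 9 milk protein genes and 9 milk fat genes on 7 arrays, with filled circles for probes well above background, open circles for dim probes and dotted lines at the lowest level well above background. Of the milk protein genes, CSN2 alone is bright in CTR, and all those with a value are bright at 2 h, 4 h and 16 h. Of the milk fat genes GPAM, SCD, MUC1 and PLIN2 are bright in CTR too. LTF has no value at 16 h, where its spot was marked as an outlier.

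Of 35 genes of milk fat synthesis and of the milk fat globule on the array 27 passed. At least 3-fold higher were 16 and none lower, against 3.11% and 4.48% of all genes. As 11 of the 16 passed through the 4 h array alone, these could only be higher, and the median change of 2.49 over the 27 includes them. Over the 12 bright on both arrays the median was 1.50, against -0.09 over all such genes. Among fatty acid carriers and uptake genes, FABP3 was at -0.63 in CTR (dim) and 7.20 at 4 h, at least 220-fold higher. FABP4 was at least 71.3-fold higher and read between 5.59 and 5.72 on all 3 arrays of slide 2 used here. LPL, the lipase that frees fatty acids from blood lipoproteins, was at least 26.2-fold and CD36, a fatty acid receptor, at least 16.9-fold higher. Further probes gave lower bounds, of 2.19 and 4.63 (log2) for FABP3, 0.00 and 3.23 for LPL and 0.00 for CD36.

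Enzymes that activate, desaturate and esterify fatty acids followed. SCD (stearoyl-CoA desaturase) was bright on both arrays, at 3.33 and 7.08, 13.5-fold higher, and its 6 further probes were all 3-fold higher. GPAM, which starts triglyceride synthesis, went from 0.62 to 4.41, 13.8-fold higher, although it read -1.37 at 2 h. ACSL1 was at least 15.8-fold and ACSS2, which activates acetate, at least 11.9-fold higher. FASN (fatty acid synthase) was 2.86-fold and ACLY 2.81-fold higher, short of 3-fold. Of the globule membrane genes, BTN1A1 (butyrophilin) was at least 45.1-fold higher and MUC1, bright on both arrays, 10.3-fold higher. PLIN2, the coat of lipid droplets, was 5.63-fold and XDH 2.23-fold higher. The further BTN1A1 probes gave bounds of 1.40 and 1.91 (log2), and those of MUC1 bounds between 0.65 and 1.82. The lowest of the list was ACSL4, with a change of -1.45.

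Most cholesterol synthesis genes could be read on both arrays. Of 24 on the array 23 passed, and 19 were bright on both arrays. At least 3-fold higher were 9 and none lower, against 3.11% and 4.48% of all genes. The median change was 1.31, and 1.34 over those bright on both arrays. NSDHL went from 0.43 to 3.31, 7.35-fold higher. SQLE (squalene epoxidase) went from 2.67 to 5.38, 6.53-fold higher. HMGCS1, which makes the HMG-CoA of the pathway, went from 1.51 to 3.82, 4.97-fold higher. FDFT1, FDPS, IDI1 and CYP51A1 were between 3.15-fold and 4.79-fold higher. INSIG1, which holds back the pathway and is also in the milk fat list, was at least 6.99-fold higher. SREBF2, the transcription factor of the pathway, read 5.63 in CTR and 4.54 at 4 h. SQLE read 4.79 at 2 h and 4.33 at 16 h, and HMGCS1 3.28 and 2.09.

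Of 36 heat shock chaperones on the array 32 passed, with a median change of 0.10. At least 3-fold higher were 3 and lower 2, against 3.11% and 4.48% of all genes. HSPB8, a small heat shock protein that works with BAG3, was dim in CTR (-1.52) and read 4.27 at 4 h, at least 28.9-fold higher. Over its 3 probes that passed the median change was 1.05. CRYAB (alpha-B-crystallin) read -0.64 in CTR, dim, and 1.89 at 4 h, at least 5.55-fold higher. Its other probe that passed gave a bound of 1.48 (log2), short of 3-fold. HSPA1A, the inducible HSP70, went from 2.47 to 4.27, 3.50-fold higher, but its 3 other probes that passed gave changes of 0.78, -0.43 and a bound of 0.97. BAG3 was 2.12-fold, HSPH1 1.62-fold and DNAJB1 1.40-fold higher. HSPB1 was 1.90-fold higher with a saturated spot at 4 h.

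The constitutive HSPA8 was lower, from 5.60 to 3.04, 5.86-fold, while its 3 other probes that passed gave changes of -1.50, -1.23 and -0.25. SERPINH1, the collagen chaperone of the ER, went from 2.12 to 0.00, 4.36-fold lower, with a change of -2.09 in its other probe that passed. HSP90AA1 and HSP90AB1 had changes of -0.20 and 0.10. HSPA1A, HSPH1, DNAJB1 and BAG3 were highest at 8 h, where they read 7.03, 4.43, 5.81 and 6.39. The highest reading of HSPB1 was at 16 h, but its saturated spot at 4 h has no rank against it. HSPB8 was bright at 2 h (4.18), 4 h, 8 h (4.63), 12 h (2.06) and 16 h (3.69) and dim in CTR and at 24 h. With normexp correction 7 heat shock genes were 3-fold higher and 1 lower. With the median over the probes of a gene 1 was higher and 1 lower. Of 28 read only from probes bright on both arrays, 1 was higher and 2 lower.

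**Figure D3:**
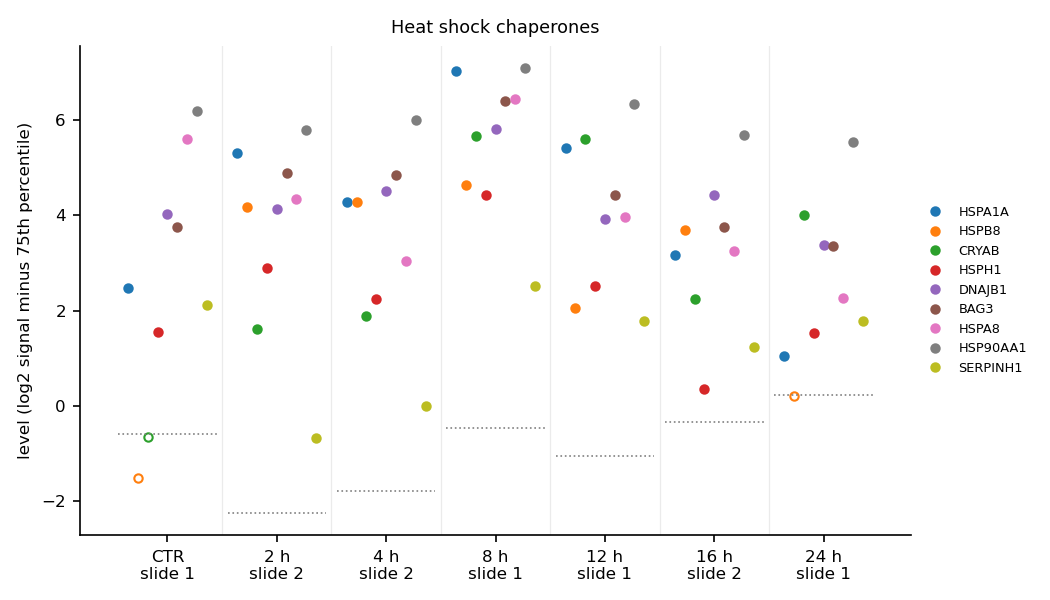
Levels (log2 signal minus the 75th percentile) of 9 heat shock genes on 7 arrays, filled where well above background and open where dim. HSPB8 and CRYAB are dim in CTR and bright at 4 h, HSPA8 and SERPINH1 lie lower at 4 h than in CTR, and HSPA1A, HSPH1 and BAG3 are highest at 8 h.

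Other protein quality genes differed less. Of 26 ER chaperones and unfolded protein response genes that passed, SYVN1 was 3-fold higher and MANF lower, and the median change was 0.49. With positions within 10 spots of the dark positions of CTR also left out, 24 passed and 0 of them were 3-fold higher. HSPA5 (BiP) went from 5.36 to 6.67, 2.47-fold higher. The MANF probe with the higher level went from 5.69 to 2.34, whereas its other probe that passed read 3.46 on both arrays. None of 8 TRiC chaperonin subunits and none of 32 proteasome subunits passed 3-fold, with median changes of -0.11 and -0.05. The cold-inducible CIRBP went from 2.18 to 1.19 and RBM3 from 4.54 to 3.67.

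Keratins, the intermediate filaments of epithelia, differed in both directions. Of 11 that passed 4 were higher and 1 lower, against 3.11% and 4.48% of all genes. Of the 4 higher, 2 passed through the 4 h array alone and could only be higher. With the median over the probes of a gene 2 were higher and 1 lower. KRT8, a keratin of luminal cells, went from 6.99 to 4.15, 7.17-fold lower, and its 3 further probes were also 3-fold lower. KRT15 went from 3.80 to 6.91, 8.61-fold higher, and KRT80 from 3.20 to 5.01, 3.51-fold higher. Further KRT15 probes gave changes between 1.69 and 3.46, and those of KRT80 a change of 1.13 and a bound of 0.00. KRT6C was at -2.51 in CTR and 5.32 at 4 h, at least 59.9-fold higher. Of KRT4 1 probe was at least 7.80-fold higher and lay within 10 spots of the dark positions of CTR, while the other was lower, at least 4.14-fold. The abundant KRT5, KRT14, KRT17 and KRT19 had changes between -1.11 and -0.29. KRT18, which the study stained as an epithelial marker, was dim on both arrays with all 3 of its probes. Outside this list the surface keratin KRT78 was 18.7-fold higher by its brightest probe, with a median of 0.95 over its 3 probes. Among 30 epithelial junction genes that passed, JUP (plakoglobin) was 3.85-fold, PKP1 (plakophilin) 5.84-fold and CLDN8 at least 4.44-fold higher by their brightest probes, and none was 3-fold lower. The other JUP probe that passed was bright on both arrays with a change of 0.11, and the other PKP1 probe gave a bound of 0.00.

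Of 18 mesenchymal and contractile genes that passed 6 were 3-fold lower, against 4.48% of all genes, 4 were higher and 8 were not past 3-fold, with a median change of -1.05. With normexp correction 1 was lower and 4 were higher. CALD1 (caldesmon) went from 7.49 to 4.98, 5.72-fold lower. TPM1 (tropomyosin) went from 6.71 to 4.62, 4.26-fold lower. TAGLN (transgelin) went from 7.44 to 5.36, 4.21-fold lower. ACTG2 was 4.00-fold and DES (desmin) 3.05-fold lower. VIM, the mesenchymal filament protein, went from 7.48 to 5.65, 3.56-fold lower, and its 5 probes gave changes between -1.83 and -0.74. On the other arrays VIM read 6.56 at 2 h and 5.94 at 16 h, and between 6.90 and 7.35 at 8 h, 12 h and 24 h. Some genes of the same list were dim in CTR and bright at 4 h. These were the smooth muscle genes CNN1 and MYH11, at least 5.83-fold and 5.61-fold higher, and MYLK, at least 3.16-fold. S100A4 was 5.50-fold higher, from 3.28 to 5.74.

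Collagen chains and matrix proteins that make up the basement membrane and stroma were mostly lower or not past 3-fold. Of 29 collagen chains on the array 15 passed, 4 were 3-fold lower and none higher, against 4.48% and 3.11% of all genes. COL4A1, a chain of basement membrane collagen, went from 3.27 to -0.36, 12.4-fold lower, and its 2 further probes that passed were lower as well. COL4A2, its partner chain, was 4.95-fold lower, from 0.79 to -1.52. COL1A1 was 3.75-fold lower, from 1.64 to -0.26. The brightest probe of COL3A1 was 4.97-fold lower, while its 3 other probes that passed were dim in CTR and bright at 4 h, with no bound above 1-fold. The median change was 0.00 over the 15 and -0.95 over the 11 bright on both arrays.

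Of 50 matrix glycoproteins and proteoglycans on the array 25 passed, with a median change of -0.56. Lower were 6 and higher 2, against 4.48% and 3.11% of all genes. LAMA4 (laminin alpha 4) went from 3.81 to -0.59, 21.2-fold lower, the largest difference downward of all genes bright on both arrays. It read -0.91 at 2 h, was dim at 16 h, and read between 2.50 and 2.69 at 8 h, 12 h and 24 h. CYR61 was 4.44-fold, BGN (biglycan) 4.20-fold, CTGF 3.58-fold, TGFBI 3.57-fold and LAMB1 3.12-fold lower. FN1 (fibronectin) was 2.33-fold lower by its brightest probe, and the median over its 13 probes was -1.91. The other BGN probe that passed was dim in CTR and gave a bound of 1.42 (log2) in the other direction. The brightest probes of DCN (decorin) and SPARC were dim in CTR and at least 7.63-fold and 6.73-fold higher. The probes of DCN disagreed, since the only one bright on both arrays had a change of -1.39 and the other 3 that passed gave bounds between 1.09 and 1.47. The 3 further SPARC probes gave bounds between 0.00 and 1.51. The brightest DCN probe was also dim at 2 h, 8 h, 12 h and 24 h and read 6.08 at 16 h. With normexp correction 1 collagen (COL4A1), 1 matrix gene (LAMA4) and 1 contractile gene (CALD1) were still 3-fold lower, so the lower calls of these lists depend on the background correction.

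**Figure D4:**
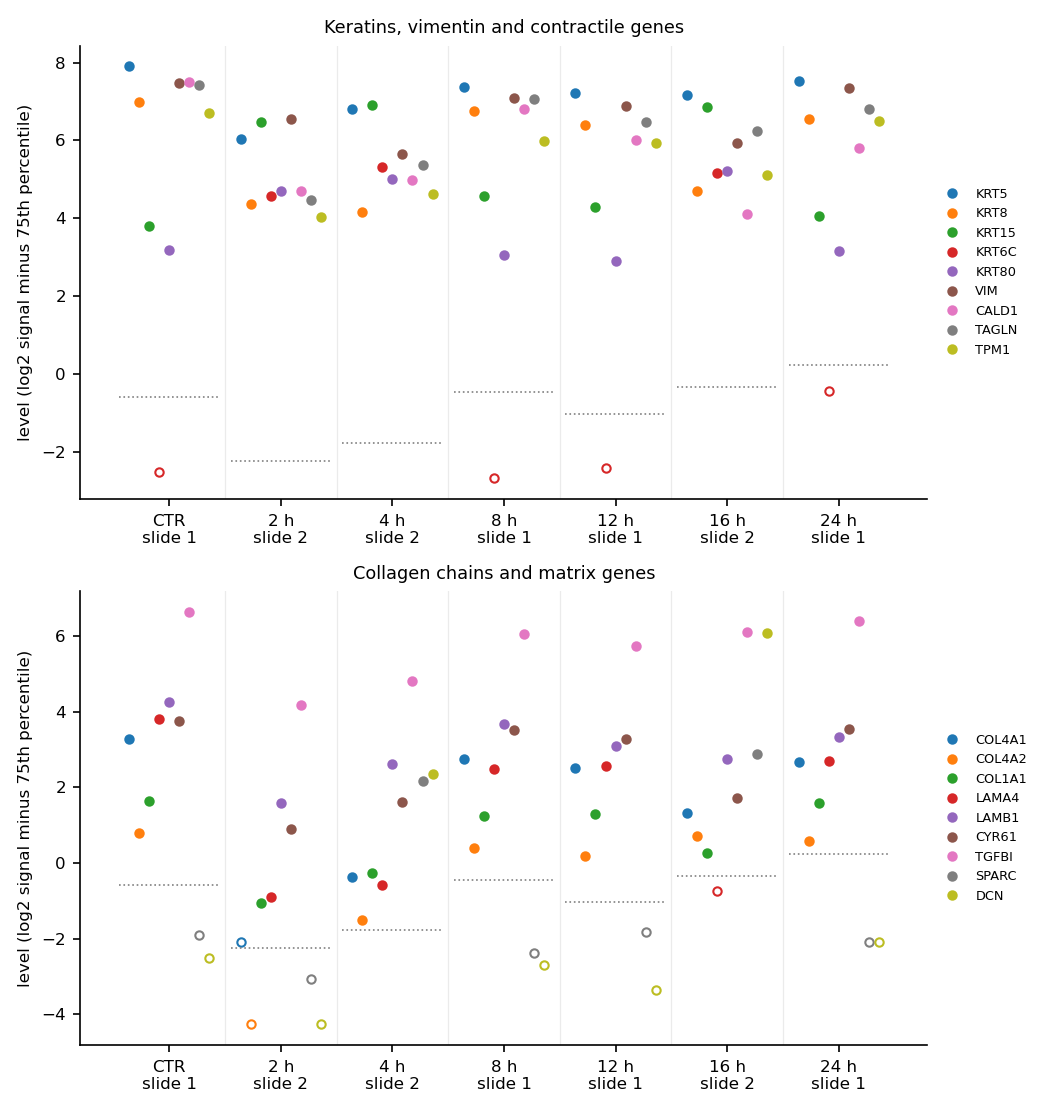
Levels (log2 signal minus the 75th percentile) of keratins, vimentin and contractile genes and of collagen and matrix genes on 7 arrays, filled where well above background and open where dim. KRT15, KRT80 and KRT6C are higher and KRT8, VIM, CALD1 and LAMA4 lower on the slide 2 arrays (2 h, 4 h, 16 h) than on the slide 1 arrays, and LAMA4 is dim at 16 h.

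Markers of cell types were read for the culture as a whole. The lowest level well above background was -0.59 in CTR, -1.78 at 4 h, -2.24 at 2 h and -0.34 at 16 h. Counts of bright markers therefore depend on the array. TYROBP (-0.76), COL1A2 (-0.93) and VWF (-1.70), dim in CTR, counted as bright at 4 h at levels under the CTR limit. The CTR level of TYROBP was -0.32. In CTR 7 of 8 mammary epithelial markers were well above background, and at 4 h also 7. Their summed level (log2 of the sum of linear levels) was 9.27 in CTR and 8.17 at 4 h. Of 9 fibroblast markers 3 were bright in CTR and 5 at 4 h, with summed levels of 7.54 and 5.85. VIM alone, at 7.48 and 5.65, made up most of both sums. COL1A1 and COL3A1, at 1.64 and 1.67 in CTR, were also lower at 4 h, whereas the brightest DCN probe was higher. LUM, PDGFRA, PDGFRB and THY1 were dim on both. Of 7 leukocyte markers 1 was bright in CTR and 4 at 4 h, with summed levels of 2.72 and 3.88. PTPRC (CD45) went from 1.72 to 3.41, 3.21-fold higher, and BOLA-DRA, an MHC class II chain, was at least 3.46-fold higher and read 1.21 at 4 h, whereas CD3E, CD14 and CD68 were dim on both. Of 4 endothelial markers none was bright in CTR and 1 (VWF, at -1.70) at 4 h. Of 3 myoepithelial markers 1 was bright in CTR and 3 at 4 h, with summed levels of 7.41 and 6.52. ACTA2, the brightest of them, had a change of -1.02, whereas CNN1 and MYH11, dim in CTR, were higher. At 16 h 7 fibroblast, 6 leukocyte and 2 endothelial markers were bright. At 2 h all 7 leukocyte markers were bright, with a summed level of 6.96, the highest of the 7 arrays. The part of the cell make-up of each culture in the changes above was not tested.

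Among the 15 genes furthest above CTR of those bright on both arrays, besides CSN2, KRT78, GPAM, SCD, MUC1 and KRT15, stood CXCL3, a neutrophil chemokine, which went from 0.03 to 4.30, 19.3-fold higher. PHGR1 was 17.4-fold, TMEM120B 16.1-fold, NOV (CCN3) 12.4-fold and LYPD3 10.9-fold higher. MALL was 8.77-fold and RHOV 8.00-fold higher. DEFB, a beta-defensin, went from 3.24 to 6.24, 7.99-fold higher. MGST1 was 10.9-fold higher with a probe within 10 spots of the dark positions of CTR. Among genes dim in CTR, CIDEA, a lipid droplet protein, was at least 127-fold and SCGB1D, a secretoglobin, at least 77.7-fold higher by their brightest probes. The 3 further CIDEA probes gave bounds between 0.56 and 2.57 (log2), and those of SCGB1D 5.19 and 5.40. TMEM120B, GPAM and CIDEA were high at 4 h and 16 h but low at 2 h: TMEM120B read 4.52 and 4.47 against 0.22.

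Among the 15 genes furthest below CTR of those bright on both arrays, besides LAMA4, COL4A1 and MANF, CABP2 went from 3.83 to -0.22, 16.6-fold lower. C25H16orf11, BTN2A1, PLA2G2A and SYNJ1 were between 11.6-fold and 13.9-fold lower, and PTPN5 had a change of -3.46 (log2). GPX8, an ER glutathione peroxidase, was 8.70-fold and DDAH1, which degrades methylarginines, 8.51-fold lower. GPR123, GPR162, IGFBP5 and CAMK1G were between 7.93-fold and 8.10-fold lower. Among genes dim at 4 h, NCAM1, a cell adhesion molecule, was at least 14.6-fold lower and NOS2, the inducible nitric oxide synthase, at least 8.74-fold. NOS2 read 1.35 in CTR and 5.58 at 2 h. C11H9orf172, SERPINI1, LBH, ACCN3, ADAMTS17, CHODL, MAP2K7 and AMH were at least 6.93-fold to 10.2-fold lower.

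Binding proteins of insulin-like growth factors differed in both directions. IGFBP3 went from 5.23 to 7.31, 4.22-fold higher, and IGFBP4 was 3.62-fold higher, whereas IGFBP5 was 7.95-fold lower and IGFBP6 went from 8.12 to 6.30, 3.51-fold lower. Among TGF-beta and BMP genes ID1, a target of BMP signals, went from 2.71 to 5.45, 6.67-fold higher. TGFBR3 was at least 4.85-fold higher by its brightest probe, while its other probe that passed gave a bound of 0.00. INHBA and LTBP1 were 3.73-fold and 3.61-fold lower. Of 24 immediate early genes that passed, JUNB, BTG2 and IER2 were between 3.26-fold and 3.67-fold higher, all of them higher still at 2 h, and CYR61 and CTGF lower. The other BTG2 probes that passed were dim in CTR and gave bounds of 0.47 and 0.00 (log2). Of 18 NF-kB targets and cytokines that passed CXCL3 was higher and TNFAIP6 lower, with a median change of 0.21. PDK4, which holds back glucose oxidation, was dim in CTR and at least 11.7-fold higher, and SLC2A3, a glucose transporter, 3.59-fold lower.

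**Figure D5:**
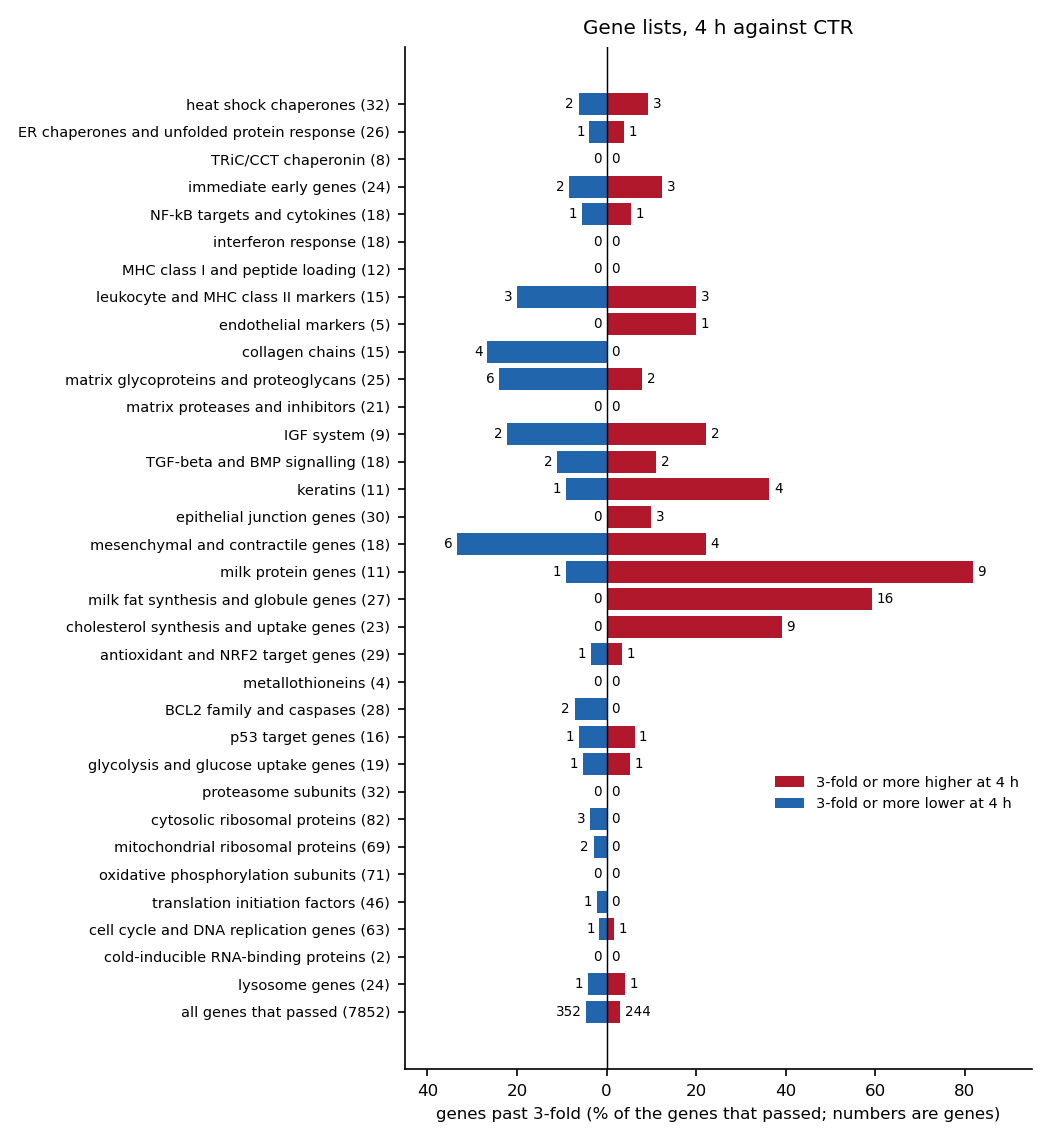
Share of genes at least 3-fold higher (right) or lower (left) at 4 h in each gene list, in percent of the genes that passed, with the number of genes at each bar and the number that passed in brackets. Milk protein (9 of 11), milk fat (16 of 27) and cholesterol genes (9 of 23) have the longest bars to the right, but 8 of the 9 milk protein and 11 of the 16 milk fat genes passed through the 4 h array alone and could only be higher.

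Of the further lists some stayed close to the median of all genes and some did not. Cell cycle and DNA replication genes had a median change of -0.02 over 63 that passed, with CCND1 (cyclin D1) 3.57-fold higher and RRM2 3.15-fold lower. None of 71 oxidative phosphorylation subunits, 18 interferon response genes, 12 MHC class I and peptide loading genes, 21 matrix proteases and inhibitors and 4 metallothioneins passed 3-fold. Of 28 BCL2 family and caspase genes BOK and BBC3 (PUMA) were 3.22-fold and at least 3.37-fold lower. BBC3 is also a p53 target, and of 16 p53 targets it was the only one lower and BTG2, by its brightest probe, the only one higher. Of 29 antioxidant genes KEAP1 was higher, with a change of 1.63 (log2), and GPX8 lower, and of 24 lysosome genes CTSZ was at least 3.89-fold higher and ASAH1 3.77-fold lower. Of 15 leukocyte and MHC class II genes LAPTM5, BOLA-DRA and PTPRC were higher and CD79A, CD4 and LYZ lower. This compares with 3.11% higher and 4.48% lower over all genes. Of the higher ones 2 passed through the 4 h array alone, and the median over the 8 bright on both arrays was -1.06. Of 5 endothelial genes EGFL7 was 3.56-fold higher. Of 69 mitochondrial ribosomal proteins 2 and of 46 translation initiation factors 1 was lower. The 82 cytosolic ribosomal proteins, all bright on both arrays, had a median change of -0.72, against -0.09 over all such genes, with 3 of them 3-fold lower. Their median level was 7.97 in CTR and 7.15 at 4 h, where the 75th percentile was a signal of 212 and 355. A spot at the top of the signal range on both arrays would read lower at 4 h by this scaling alone. ACTB and ACTG1, at 8.23 and 8.25 in CTR, both had changes of -0.73. The part of this limit in the ribosomal median was not tested. The genes the study grouped by function were chosen on these samples. Of its 7 heat shock genes 6 passed, and 2 of these were 3-fold higher (HSPB8 and HSPA1A). The median change was 1.17 and the lowest 0.48. Only 4 of the 6 were bright on both arrays, with a median of 1.00. The others were dim in CTR and could not be below 0. None of 7 apoptotic and 4 oxidative stress genes passed 3-fold. Of 8 immune genes BOLA-DRA was higher, and CD4 and PDGFA were 3.94-fold and 5.94-fold lower. HMOX1 was 2.20-fold higher, MCL1 2.08-fold lower, and IL1A was dim in CTR and at -1.28 at 4 h.

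The order of the other arrays was counted as a measure that the comparison did not use. Over 4696 genes well above background on all 7 arrays, the 2 h and 16 h levels were both above those of 8 h, 12 h and 24 h in 20.1% of genes and both below in 19.9%. Of the 98 such genes 3-fold higher at 4 h, 79 were above in this sense and 0 below. Of the 130 such genes 3-fold lower at 4 h, 93 were below and 0 above. Over all genes that passed, bright or dim, 156 of 243 higher genes were above (15.6% of all genes) and 222 of 350 lower genes below (19% of all genes). Most genes that differed between 4 h and CTR thus differed the same way between the other arrays of these slides.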

How the data were processed

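RNA of 8 samples had been labelled with Cy3 and hybridised to bovine 4x44K arrays, which the authors scanned with a GenePix-4000B and read with Feature Extraction 9.5.3.1. The deposited intensity of each spot is the processed signal of that program, with no scaling between arrays, and the authors also deposited mean and background intensities of each spot, used for normexp. The deposited log2 values, from GeneSpring GX, were shifted to the 75th percentile and centred on each probe, and the change between 4 h and CTR in them differed from the plain difference used here by an SD of 0.0022 (log2). In those values the column medians were 0.44 for CTR and -1.04 for 4 h.

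Spots of 1 probe were averaged after outlier-marked spots were left out, and the 75th percentile over 43653 probes was subtracted on each array. Probes at rows 216 to 330 and columns 30 to 59 were left out as dark on the CTR array. A gene was read from its brightest probe (mean of both arrays) among those that passed and carried a gene symbol. Genes were named as the 15 furthest above and below CTR among those bright on both arrays, the 10 largest by bound in each direction, members of 37 lists (4 of them the study's functional classes) and cell type markers. Members and lists were chosen with earlier results of these data known. Calls are changes of 3-fold, the study's cutoff, with no test, since each condition had 1 array. The calling steps were tested on simulated data. Of 320 spike-in spots at most 9 were well above background on any array, so they gave no scale. Alternatives were other filters, normexp with an offset of 50, quantile normalization, other centrings, the deposited log2 values, other thresholds and the median over probes of a gene. Python 3, numpy, pandas and limma were used. Only gene symbols from the array files were used, with no genome or annotation. The number of arrays limits the precision. Some members of the lists are counted but not reported by name here.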

Additional observations from a re-analysis of the deposited data

How the results depend on the processing

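The counts depended on the centring, on the background correction and on how dim probes were treated. The 408 higher and 825 lower probes, 33.1% higher, became 175 higher over probes bright on both arrays, 3605 lower and 10.2% higher with no filter, and 873 higher (51.4%) with the plain difference. They became 653 higher and 214 lower (75.3% higher) with normexp, 2683 and 82 (97.0%) with the median over all probes, 872 higher (51.3%) in the deposited log2 values and 795 higher (48.8%) with dark positions kept. At 2-fold 1031 were higher and 1831 lower, and at 5-fold 187 and 182 (50.7%). Quantile normalization, both centrings on bright probes, kept outliers and distinct gene names left counts within 1.5 times. Leaving out positions within 10 spots of the dark region, chosen after seeing the data, gave 354 and 811.

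Normexp, which moved the median of all genes by 0.28, gave medians of 0.74 for heat shock chaperones, 1.06 for ER chaperones, 0.00 for matrix genes and 1.81 for cholesterol genes. The deposited log2 values gave 0.72 for NF-kB targets. With each gene read from its brightest probe among those bright on both arrays, which can be another probe than in the report, the medians were 0.85 for 7 NF-kB targets, -1.08 for 12 collagens and -0.95 for 20 matrix genes. Without the margin of the dark region the collagens gave -0.67. KRT4 turned to -2.05 there, since its other probe then stood for it. Milk protein genes had 9 higher calls under every alternative run on this list except quantile values and the added margin (8 of 10 in both) and the filter to both arrays (1 of 2). Milk fat genes had 16 to 19, except 15 of 26 with quantile values and 6 of 13 with that filter. Of 139 named genes past 3-fold, 104 remained so with normexp, 122 with the median over probes and 125 of 129 with quantile values. All 139 remained so in the deposited values, and no sign changed in these. The deposited values repeat the plain difference, which is never smaller in size than a bound, so their count was fixed in advance. With normexp and quantile values a gene dim on 1 array could not change sign. The median of cell cycle genes moved by less than the error of a change under every alternative run on it. No paired analysis was possible because each condition had 1 array, all with replicate number 1, and no replicate could be left out.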
